A study of Rattus norvegicus with 6 samples.

Results

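Among 32445 circular RNAs listed for rat thalamus, 153 (0.472%) lay across the genome from another circular RNA. A circRNA was a member if its genomic span overlapped by at least 1 nt the span of a circRNA on the same chromosome and the opposite strand. Of the 153 circles, 72 were plus-strand and 81 minus-strand circles, and they formed 198 opposite-strand pairs in 31 clusters on 17 chromosomes. By contrast, 83749 pairs of circRNAs in the same table overlapped on the same strand.

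The RNA came from the thalamus of 6 rats, 3 injected in both temporomandibular (jaw) joints with 50 uL of CFA and 3 with saline, and taken after 14 days of repeated injections. The model is one of chronic inflammatory pain of that joint, and the study asked which thalamic circRNAs differ with it. All 6 rats received joint injections, and no uninjected animal was included. The labels give no strain, sex or age.

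A circRNA forms when a downstream splice donor is joined to an upstream splice acceptor, which closes one or more exons into a ring with no free end. Spliceosomes read the donor (GT) and acceptor (AG) on the strand that is transcribed, so a circle carries the strand of its gene. Circles on facing strands can come from overlapping genes, and where their exons coincide their sequences are reverse complements of each other. Circles are abundant in brain tissue and are stable because exonucleases find no end to attack.

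The sequences below were chosen because they show how closely some facing circles mirror each other at their ends. Each 58 nt sequence joins the last 29 bases of a circle to its first 29 bases, 5′ to 3′ on the strand of the circle. Capitals mark the last 2 or 6 bases of the circle that reaches further, and the first 20 bases of its partner.
novel_circ_0045343 (minus, chr9:100170006-100170641): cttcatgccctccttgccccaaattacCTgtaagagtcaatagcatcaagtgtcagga
novel_circ_0045344 (plus, chr9:100170008-100170567): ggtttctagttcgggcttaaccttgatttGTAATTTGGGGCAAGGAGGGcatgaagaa
novel_circ_0001592 (plus, chr10:64380447-64388897): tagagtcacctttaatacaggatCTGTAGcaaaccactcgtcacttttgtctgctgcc
novel_circ_0001593 (minus, chr10:64387405-64388891): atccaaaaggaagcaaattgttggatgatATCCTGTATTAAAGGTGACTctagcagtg
novel_circ_0016560 (plus record, chr19:43119870-43124023): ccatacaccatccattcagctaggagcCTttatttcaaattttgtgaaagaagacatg
novel_circ_0016560 (minus record, chr19:43119868-43124021): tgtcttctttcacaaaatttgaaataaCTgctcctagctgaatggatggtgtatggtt
novel_circ_0016561 (minus, chr19:43120530-43124021): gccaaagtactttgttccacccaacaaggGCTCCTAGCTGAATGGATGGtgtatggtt
novel_circ_0016558 (minus, chr19:43115020-43124021): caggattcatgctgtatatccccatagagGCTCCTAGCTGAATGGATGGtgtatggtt
The 20 capital bases that open each partner are the reverse complement of the bases just before the capitals in the circle that faces it. Positions are those of the deposited sequence file (genome build not given in the sources used here).

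Ends within 10 nt of each other were found in 7 of the 198 pairs. In 6 of them the offset was 2 nt, and the extra bases were CT at the 3′ end of the circle that reached further. In each of these pairs that circle was either novel_circ_0045343 or the plus record of novel_circ_0016560, so the pairs are not independent. By its minus record, novel_circ_0016560 would lie on the same strand as its partners and would not face them. The reverse complement of CT is AG, the acceptor dinucleotide read on the other strand. The remaining pair, novel_circ_0001592 and novel_circ_0001593, was offset by 6 nt and the extra bases were CTGTAG. For 9 members, bases outside the circle could be read from an unspliced neighbour, and all 9 had AG before the circle or GT after it on their own strand, at each side that could be read. Of these, 5 belong to the chromosome 9 cluster at 100169986, so they are not independent. Whether the authors' detection of circles required these bases is not known here, so the match may have been fixed in advance.

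One identifier carried both strands at once. The sequence file holds 32489 records for 32445 identifiers, and 44 identifiers have 2 records. In 43 of these the records lie on 1 strand and differ by 2 nt at 1 end. For novel_circ_0016560 they lie on opposite strands, offset by 2 nt at both ends as printed above, while the count table holds a single row of 3214 reads for it. The strand of those reads cannot be told, so its chromosome 19 cluster of 10 circles was left out of every result on strand balance, which leaves 30 clusters, 143 circles and 189 pairs. Without that cluster the members number 143.

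The library protocol in the labels names no strand marking, and no source used here says how the authors assigned a strand to a circle. Reads of a circle and of a mirrored partner therefore cannot be told apart by strand in these files alone. Depth was 573696 to 1176178 circRNA reads per library, members held 31349 of 4897592 reads (0.64%), and reads are not corrected by molecular identifiers, so any counting interval or floor covers counting error only. The lowest count above 0 was 2, so a listed 0 may stand for 1 read. The files pair no circle with a gene, so markers of the thalamus or of its cell types could not be checked, and in whole tissue fewer cells of a type and less RNA per cell cannot be told apart.

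Nesting and tail-to-tail overlap accounted for most pairs. A circle lay wholly inside its partner in 85 pairs, with the plus circle inside in 45 and the minus circle inside in 40. In 91 pairs the spans overlapped at their 3′ sides (tail to tail) and in 22 at their 5′ sides (head to head). The overlap had a median of 4615.5 nt, ranged from 46 to 55991 nt, and covered a median of 90.9% of the shorter span. Only 5 pairs overlapped by less than 100 nt. The chromosome 8 cluster alone gave 90 of the 198 pairs, so counts and medians over pairs lean on that locus.

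In most pairs the spans overlapped while the spliced sequences did not mirror each other. The spliced sequences of 53 pairs (26.8%) shared a reverse-complement stretch of at least 20 nt, whereas the longest such stretch in the other 145 pairs was 11 nt. The shared stretches measured 46 to 672 nt with a median of 126 nt, and involved 58 circles in 13 clusters.

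**Figure D1:**
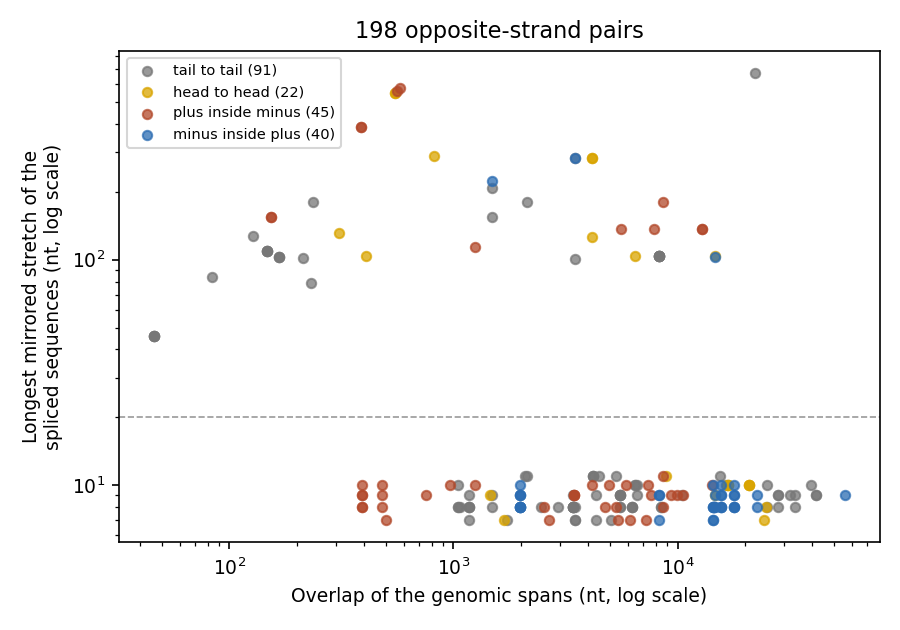
Each point is 1 of 198 opposite-strand pairs, with the overlap of the genomic spans in nt on the x axis and the longest reverse-complement stretch of the spliced sequences in nt on the y axis, both on log scales, coloured by the arrangement of the pair. The points fall in 2 bands, 53 pairs at 46 nt or more and 145 at 11 nt or less, with the dashed line at 20 nt.

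The longest mirrored stretch, 672 nt, joined novel_circ_0042439 (plus, 907 nt) and novel_circ_0042441 (minus, 878 nt) on chromosome 8. It made up 74.1% of the first circle and 76.5% of the second. The plus circle had 11 reads, 2 in CFA 2 and 9 in CFA 3, and the minus circle had 20 reads, 10 in saline 1 and 10 in saline 2. No library held both.

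Members were more often unspliced and less often well read than the other circRNAs, as a description. An unspliced circle, whose length equals its span, was seen in 14 of 153 members (9.15%) and in 2.34% of the other 32292 circles. The chromosome 9 cluster at 100169986 alone gave 5 of the 14. Median reads summed over the libraries were 13 for members and 21 for the rest, and 90 members (58.8%) reached 10 reads against 69.2% of the rest. Reads in 1 library alone were found for 58 members (37.9%, against 29.1%), 19 of them in saline 2, the deepest library, and 14 in CFA 3. Median length was close, 386 nt for members and 384 nt for the rest, and median GC content was 48.8% and 47.7%.

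Stop-free reading frames were counted on the strands with more and with fewer reads. Each spliced sequence was read once from its first to its last base, and codons across the back-splice junction were not read. A frame without a stop codon over that length, with no start codon required, was present in 59 members (38.6%) and in 50.2% of the rest. On the strand with more reads in its cluster 45 of 88 circles had such a frame (51.1%), and on the strand with fewer reads 8 of 55 had one (14.5%). Read from the reverse complement, 9 of those 55 and 7 of those 88 had one. These counts are descriptions, since circles of a cluster share exons. Of the 55 circles, 16 are plus circles of the chromosome 8 cluster, and 0 of these had a frame as given. That strand had fewer reads only by 1054 against 1119, and it had more than the minus strand in every CFA library. On the minus strand of that cluster 7 of 10 circles had a frame.

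Most clusters were one-sided by reads, as a description. The strand with fewer reads was picked by these same reads, so its share cannot exceed that of the other strand. No baseline of unrelated circles was computed, and 13 of the 31 clusters hold only 2 circles. The strand with fewer reads held a median of 12.5% of the reads of its cluster over the 30 clusters with known strands, with quartiles at 4.61% and 28.5%. It was seen in 1 library alone in 22 of the 30 clusters. Both strands were read within the same library at least once in 19 clusters, and in all 6 libraries in 3. At least 10 reads on each strand were reached in 9 clusters.

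**Figure D2:**
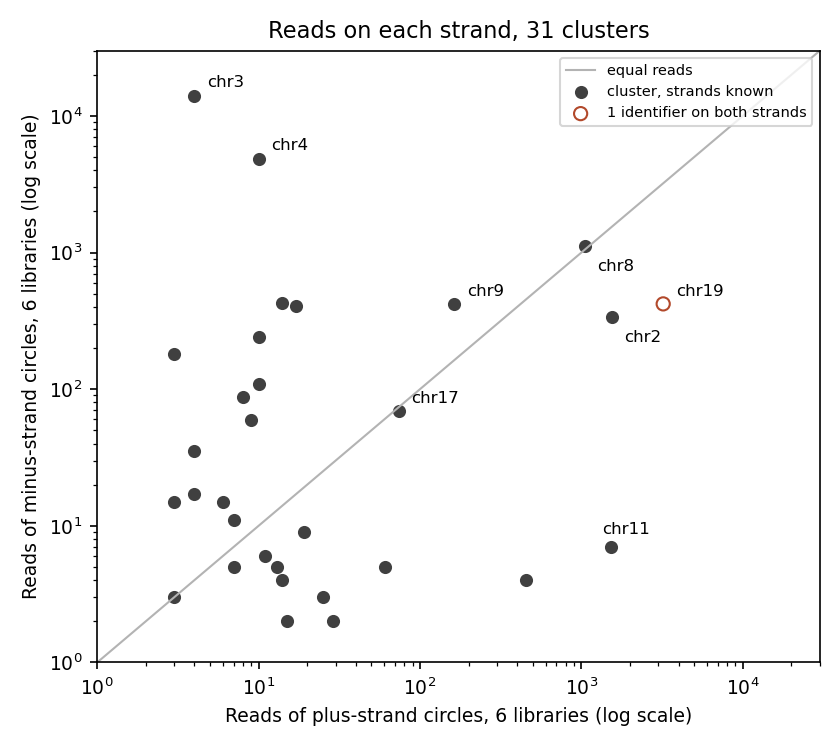
Each point is 1 of 31 clusters, with the reads of its plus-strand circles on the x axis and of its minus-strand circles on the y axis, summed over 6 libraries, on log scales, and the grey line marks equal reads. Chromosomes 8 and 17 lie near the line with 1054 plus and 1119 minus reads, and 74 plus and 69 minus reads, and the open circle is the chromosome 19 cluster with the identifier recorded on both strands.

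The circles of the strand with fewer reads were 55 in number and held 1790 reads in all, with a median of 9. Of these, 29 were read in 1 library and 6 in all 6. The 88 circles facing them held 25924 reads with a median of 16.5, and 24 were read in 1 library and 18 in all 6. Of the 25924 reads, 14103 belong to novel_circ_0030037 alone. The strands were told apart by summed reads, so a difference in this direction follows from the split.

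The chromosome 8 cluster was the largest and the most balanced of the well-read ones. It spans chr8:109476796-109563410 and holds 26 circles, 16 plus and 10 minus, in 90 pairs. The plus circles use 6 lower and 8 upper ends, and 6 of the 16 start at 109499034. Reads on the plus strand were spread over several circles, led by novel_circ_0042442 with 288 reads and novel_circ_0042451 with 248. On the minus strand novel_circ_0042471 held 829 of 1119 reads. A frame without a stop was present in 7 of 10 minus circles and in 0 of 16 plus circles.

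**Figure D3:**
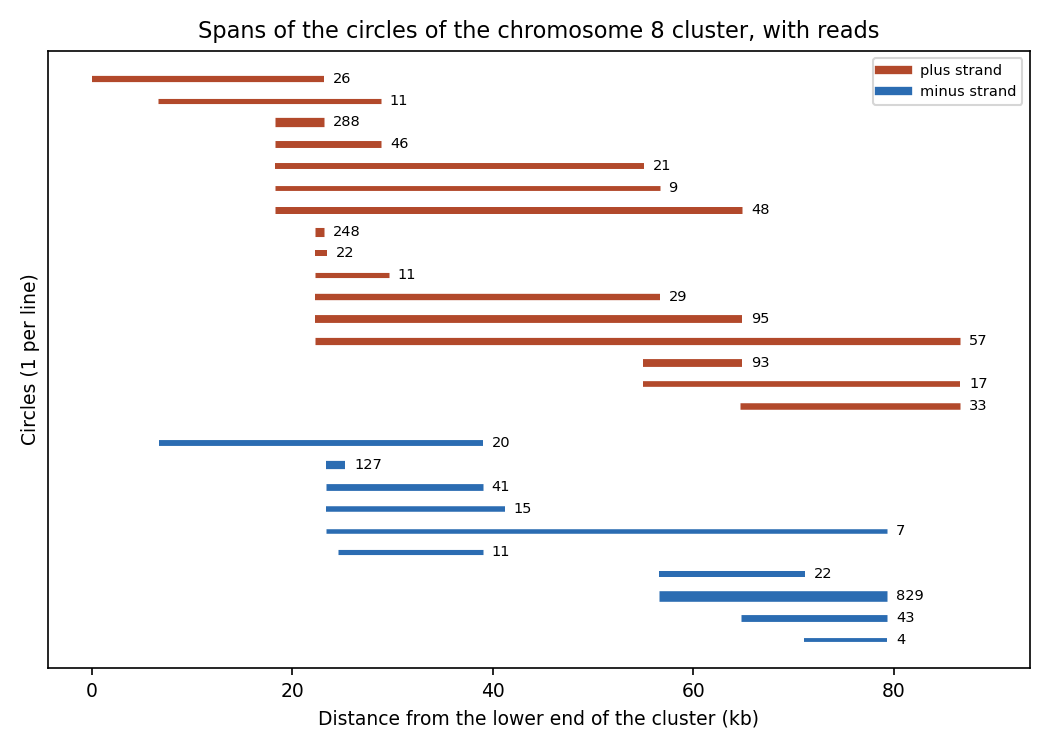
Each bar is the span of 1 of 26 circles, drawn as distance in kb from the lower end of the cluster, with its reads in 6 libraries printed at its right and bar thickness rising with the logarithm of the reads. Plus circles share a few start points, and 1 minus circle holds 829 reads.

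Summed plus-strand RPM (reads scaled to 1000000 circRNA reads per library) on chromosome 8 were 276, 187 and 310 in CFA 1, 2 and 3, and 223, 162 and 163 in saline 1, 2 and 3. Summed minus-strand RPM were 228, 146 and 256 in CFA, and 321, 266 and 156 in saline. Plus exceeded minus in every CFA library and in saline 3, and minus exceeded plus in saline 1 and 2. The plus share was 55.2% ± 0.858 (SD, n = 3) in CFA and 43.3% ± 6.99 (SD, n = 3) in saline, and the groups did not overlap. This was 1 of the 9 tested clusters without overlap (11.1%), and by edgeR's quasi-likelihood test of the strand by group term the log2 difference was 0.70 ± 0.45 (SE), with a Benjamini-Hochberg adjusted p of 0.730.

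The chromosome 2 cluster (chr2:11780889-11829939) had 2 plus circles with 1541 reads facing 5 minus circles with 340 reads. Both plus circles share their 5′ end, at 11780889, and all 5 minus circles share their 3′ end, at 11787460. Summed plus-strand RPM were 283, 562 and 226 in CFA and 146, 176 and 528 in saline. Summed minus-strand RPM were 74.6, 27.6 and 77.5 in CFA and 66.2, 116 and 29.9 in saline. CFA 2 and saline 3, 1 from each group, had the highest plus sums and the lowest minus sums.

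The chromosome 9 cluster (chr9:100169986-100170641) is compact at 656 nt and holds 5 unspliced circles, 3 plus and 2 minus. Its leading circles, whose junctions are printed above, were novel_circ_0045343 (minus, 636 nt, 401 reads) and novel_circ_0045344 (plus, 560 nt, 122 reads). Every base of novel_circ_0045344 is mirrored in novel_circ_0045343. The longer plus circle novel_circ_0045345 shares 576 nt with novel_circ_0045343, and both plus circles share 546 nt with novel_circ_0045342.

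**Figure D4:**
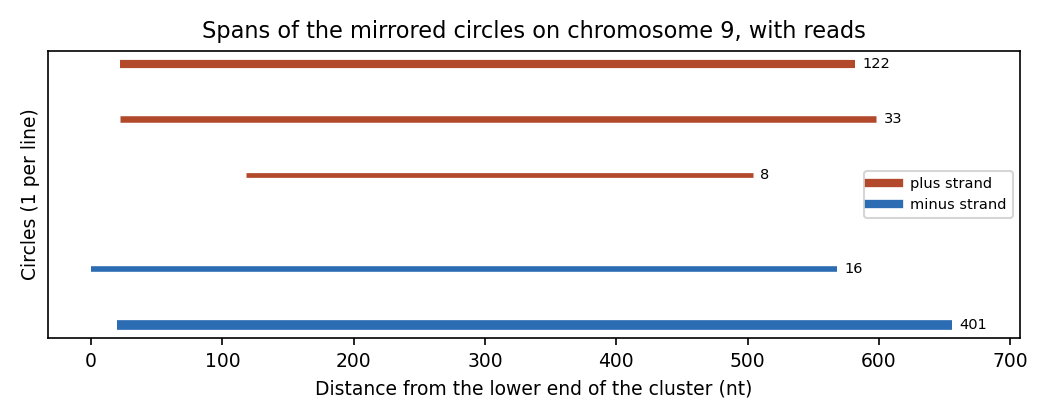
Each bar is the span of 1 of 5 unspliced circles on chromosome 9, drawn as distance in nt from the lower end of the cluster, with its reads in 6 libraries printed at its right. The plus circle with 122 reads lies within the minus circle with 401 reads, and their lower ends differ by 2 nt.

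The minus circle novel_circ_0045343 measured 95.9, 76.7 and 84.1 RPM in CFA and 115, 66.3 and 72.6 RPM in saline. Its mirror novel_circ_0045344 measured 32.0, 21.5 and 29.9 RPM in CFA and 29.6, 22.1 and 18.2 RPM in saline. Both were read in all 6 libraries, the minus circle was higher in each, and the CFA and saline ranges overlapped for both. The remaining circles were sparse, with 16 reads of novel_circ_0045342 in saline 2 only and 8 reads of novel_circ_0045346 in CFA 3 only.

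**Figure D5:**
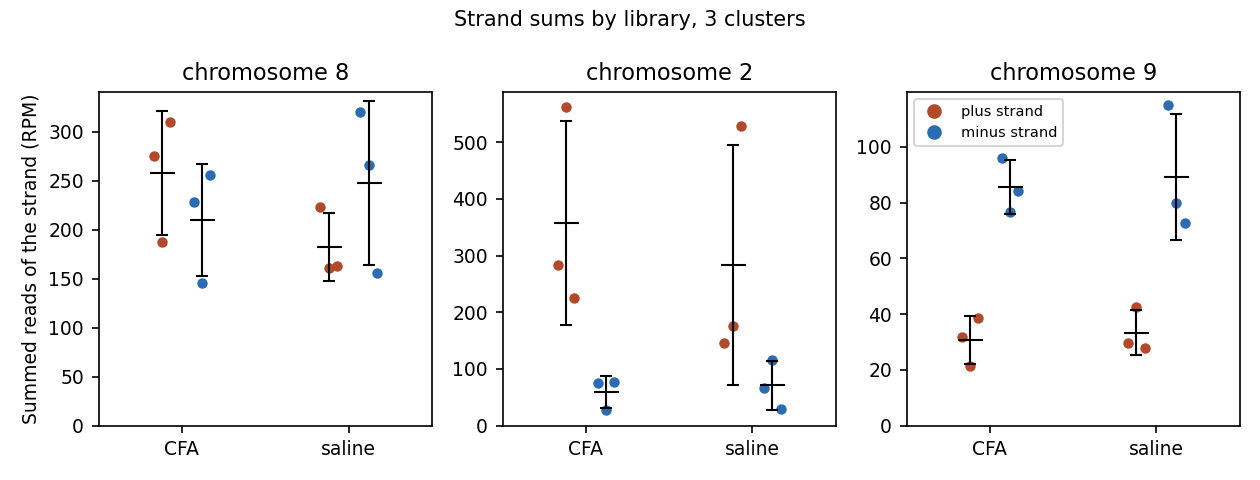
Summed RPM of the plus-strand and minus-strand circles of the clusters on chromosomes 8, 2 and 9, with 1 point per library, a horizontal bar at the mean and whiskers of 1 SD (n = 3 per group). On chromosome 8 the CFA libraries and saline 3 have more plus than minus reads. On chromosome 2 the points of CFA 2 and saline 3 stand high on the plus strand and low on the minus strand.

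On chromosome 17 (chr17:89178343-89217310) 1 plus circle with 74 reads faced 2 minus circles with 69 reads, but the plus strand had 0 reads in CFA 3 and the minus strand 0 in saline 1. The next clusters by lesser-strand reads were one-sided. On chromosome 4 (chr4:168480425-168521076) 8 minus circles with 4880 reads faced 1 plus circle with 10. On chromosome 3 (chr3:1747763-1805910) 17 plus reads, all in saline 2, faced 409 minus reads, and on chromosome 10 (chr10:62607246-62664462) 14 plus reads faced 429.

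On chromosome 6 (chr6:2933172-2959654) 2 plus circles with 10 reads, 5 in CFA 2 and 5 in CFA 3, faced 9 minus circles with 240 reads. On chromosome 2 (chr2:239131162-239199187) 10 plus reads came from 1 library and faced 109 minus reads. The second largest cluster, of 16 circles on chromosome 11 (chr11:34668091-34738866), was a cluster through a single minus circle of 7 reads, all in CFA 2, that faced 15 plus circles with 1521 reads.

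A pair on chromosome 6 (chr6:91500991-91526132) had 19 plus reads and 9 minus reads, with no library holding both. Its plus circle, novel_circ_0039444, is unspliced, 755 nt long and was read in saline 2 alone. It contains, in antisense, all 300 bases of the window around the start of Pole2, a subunit of DNA polymerase epsilon, in RefSeq's promoter table for GRCr8. Of 33469 promoter windows in that table this was the 1 found in a member, by matches of 30 bases, and 0 of 419 miRNA hairpins were found.

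The most abundant member faced almost no reads. novel_circ_0030037 (minus, chr3:94396940-94398038, 1099 nt, unspliced) held 14103 reads and faced novel_circ_0030038 (plus, chr3:94397040-94397193), a 154 nt circle with 4 reads. The small circle is shown whole, with the stretch of the large circle that mirrors it in capitals.
novel_circ_0030038: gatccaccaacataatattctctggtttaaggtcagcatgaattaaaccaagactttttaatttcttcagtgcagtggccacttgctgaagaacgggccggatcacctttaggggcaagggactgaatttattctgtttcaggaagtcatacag
novel_circ_0030037: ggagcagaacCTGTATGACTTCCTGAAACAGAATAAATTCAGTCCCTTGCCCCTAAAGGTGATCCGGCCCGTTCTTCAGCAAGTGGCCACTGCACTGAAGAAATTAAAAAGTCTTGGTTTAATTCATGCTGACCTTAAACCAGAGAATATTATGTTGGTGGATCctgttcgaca
The RPM of novel_circ_0030037 were 0, 2601 and 2871 in CFA and 3178, 4658 and 2684 in saline. CFA 1 was the only library at 0 for it and the only one with reads of novel_circ_0030038, 4 in all. The CFA and saline ranges overlapped, and edgeR's adjusted p for novel_circ_0030037 was 0.99994.

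The next most abundant members had overlapping groups. The circle with both strands, novel_circ_0016560, measured 688 ± 41.9 RPM in CFA and 645 ± 46.7 in saline (SD, n = 3 each). On chromosome 4 novel_circ_0031281 measured 567 ± 186 and 602 ± 216 RPM, and novel_circ_0031277 measured 356 ± 66.2 and 359 ± 65.7 RPM, in CFA and saline. novel_circ_0022981 of the chromosome 2 cluster measured 220 ± 169 and 181 ± 153 RPM. The CFA and saline libraries overlapped for each of these 4 circles, and each had an edgeR adjusted p of 0.99994.

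Between CFA and saline, 1 of 90 members with at least 10 reads passed edgeR's quasi-likelihood test at a Benjamini-Hochberg adjusted p below 0.05, beside 28 of 22426 circRNAs in all (0.125%). The circle was novel_circ_0003267 (plus, chr11:34693285-34722272, 421 nt), with 0, 0 and 0 reads in CFA and 0, 53 and 42 reads in saline. Saline 1 was at 0 like every CFA library, so the groups overlapped and the call came from 2 libraries. Against a floor of 3 counts over the CFA group it was at least 26.1-fold lower in CFA, with an adjusted p of 0.00142 by edgeR. That p rests on a spread pooled almost fully across circles (prior degrees of freedom 16400). Among circles with at least 30 reads the prior fell to 5.43, and the adjusted p by edgeR was 0.99999, with 0 of 13949 circRNAs called. By DESeq2 it was 0.99999, and by edgeR without saline 2 it was 0.844 and without saline 3 it was 0.458.

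At an unadjusted p below 0.05 by edgeR there were 3 members, beside 2.68% of all circRNAs tested. The second was novel_circ_0045345 of the chromosome 9 cluster, with 0 reads in CFA and 0, 24 and 9 in saline. The third, novel_circ_0016561, which shares 281 nt with novel_circ_0016560, measured 89.9, 62.9 and 56.5 RPM in CFA and 38.3, 18.7 and 44.9 RPM in saline. Its CFA libraries all lay above its saline libraries, with a log2 difference of 1.02 ± 0.49 (SE) and an edgeR adjusted p of 0.912. The median log2 difference was 0.09 over the 90 members, 49 of them above 0, and -0.05 over all circRNAs tested.

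Groups without overlap in RPM were found for 4 of the 90 members (4.44%), beside 6.63% of all circRNAs tested. Higher in every CFA library were novel_circ_0016561 and novel_circ_0042458, a plus circle of the chromosome 8 cluster at 20.8 ± 8.56 RPM in CFA and 3.98 ± 4.30 in saline (SD, n = 3 each). Lower in every CFA library were novel_circ_0042460, a minus circle of that cluster at 1.84 ± 3.2 and 16.5 ± 14.5 RPM, and novel_circ_0031276 on chromosome 4 at 5.49 ± 4.79 and 22.1 ± 7.14 RPM. The latter 3 circles had edgeR adjusted p of 0.912.

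The balance of the strands passed the test in 0 of 9 clusters (0%), and at an unadjusted p below 0.05 by edgeR also in 0 (0%). By DESeq2 the number called was likewise 0. The smallest p belonged to the chromosome 6 cluster at 2933172, at a log2 difference of 4.64 ± 2.11 (SE) and an edgeR adjusted p of 0.730, on 10 plus reads. The chromosome 3 cluster at 1747763 differed by -4.05 ± 3.08 and the chromosome 10 cluster at 62607246 by -2.15 ± 2.0. The SE was 0.45 and 0.54 for the clusters on chromosomes 8 and 9, 1.31 for the chromosome 2 cluster at 11780889, and 2.0 to 3.15 for the other 6.

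The share of circRNA reads that fell in members was 0.382%, 0.60% and 0.661% in CFA and 0.680%, 0.80% and 0.603% in saline. The groups overlapped, at 0.548% ± 0.147 and 0.695% ± 0.0994 (SD, n = 3 each, two-sided exact permutation p = 0.2, where 0.1 is the smallest 3 against 3 can give). Without novel_circ_0030037, which was at 0 in CFA 1, the order turned, at 0.365% ± 0.0222 in CFA and 0.344% ± 0.0157 in saline (exact permutation p = 0.2). The difference of -0.147 percentage points was -0.0641 without CFA 1 and -0.0941 without saline 2.

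The strand with fewer reads held 14.1%, 5.30% and 8.50% of cluster reads in CFA and 5.82%, 5.13% and 4.79% in saline. CFA 1 stood highest, and CFA 2 lay within the saline range, with means of 9.31% ± 4.48 and 5.25% ± 0.522 (SD, n = 3 each, exact permutation p = 0.2). The difference of 4.06 percentage points was 1.65 without CFA 1 (exact permutation p = 0.2), 2.13 without unspliced circles and 0.131 as a mean over the 8 clusters with at least 20 reads in every library (exact permutation p = 1.0). Without the cluster of novel_circ_0030037 the means were 13.7% ± 3.02 and 12.01% ± 2.19 (exact permutation p = 0.5).

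Strand sums could be followed over libraries in 3 clusters with at least 100 reads on each strand, on log2(RPM + 1) over 6 libraries. On chromosome 2 Pearson's r was -0.876 (exact permutation p = 0.0361, adjusted over 3 clusters 0.108) and Spearman's rho -0.657 (exact permutation p = 0.175). Without CFA 2 and saline 3 that r was -0.0852, so it rests on those libraries. On chromosome 8 r was 0.410 (exact permutation p = 0.396) and rho 0.0857 (exact permutation p = 0.919). On chromosome 9 r was 0.106 (exact permutation p = 0.846) and rho 0.371 (exact permutation p = 0.497). Among single circles, which are not the same measure as strand sums, 6143 same-strand overlapping pairs with at least 100 reads each had a median r of 0.245, with quartiles at -0.170 and 0.591.

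Single facing circles with at least 100 reads each formed 7 pairs, which share circles and libraries. The mirrored pair novel_circ_0045344 and novel_circ_0045343 had an r of 0.765 (exact permutation p = 0.0819, adjusted over 7 pairs 0.191) and a rho of 0.657 (exact permutation p = 0.175), and r was 0.767 without CFA 1 and saline 3.

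On chromosome 2, novel_circ_0022981 (plus) and novel_circ_0022984 (minus) moved in opposite directions. The plus circle had 102, 268 and 83 reads in CFA and 62, 92 and 334 in saline, and the minus circle 11, 0 and 43 and 17, 46 and 0. The libraries with the most plus reads, CFA 2 and saline 3, were those at 0 for the minus circle. The r was -0.983 (exact permutation p = 0.00556, adjusted over 7 pairs 0.0389) and rho -0.928 (exact permutation p = 0.0222, adjusted 0.156), and r was -0.919 over the 4 libraries left without CFA 2 and saline 3. The other minus circle of 184 reads, novel_circ_0022985, gave an r of -0.214 with the same plus circle (exact permutation p = 0.686). The second plus circle, novel_circ_0022982, gave an r of -0.542 with novel_circ_0022984 and of 0.383 with novel_circ_0022985 (exact permutation p = 0.267 and 0.421). The last 2 pairs join novel_circ_0016560, of unknown strand, to novel_circ_0016561 (r = 0.801, exact permutation p = 0.0444, adjusted 0.156) and to novel_circ_0016558 (r = -0.255, exact permutation p = 0.629). Without CFA 1 and saline 2 the first of these fell to 0.0590.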

How the data were processed

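Per the file headers, the authors deposited raw read counts of each circRNA in each library, beside a normalized value named TPM. That deposited value was the count times 1 constant per library, so its unit is RPM without a length term. All printed RPM were recomputed from counts and library sums. Positions, strands and spliced sequences came from the deposited sequence file, with 1 added to starts counted from 0; where an identifier had 2 records, the last was used. The submitters' processing notes list DESeq2 1.20.0, featureCounts 1.5.0-p3, HISAT2 2.0.5 and StringTie 1.3.3b. No source used here names the circRNA caller or the genome build. Poly-T beads were used to purify the RNA, per the labels' protocols, and circRNAs have no poly(A) tail.

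Counts of circRNAs with at least 10 reads over 6 libraries were tested with edgeR 4.0.16 (TMM, robust quasi-likelihood fit, Benjamini-Hochberg adjustment over all circRNAs), with DESeq2 1.42.0 as an alternative, in R 4.3.3. Strand balance was tested as a strand by group term with each library as a block, for clusters with at least 10 reads on each strand. Read shares used exact permutation tests, and correlations used log2(RPM + 1) and exact permutations. The scripts were tested on simulated data. P-values of the group comparisons rest on 3 and 3 animals, and those of edgeR use a spread pooled across circles or clusters. P-values of correlations permute the 6 libraries without regard to group.

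Groups and replicate numbers came from the sample titles. The column of CFA replicate 3 is named with another letter code than those of CFA 1 and 2, and its meaning is unknown here. No 2 libraries agreed within sampling noise (lowest chi-square per degree of freedom 7.49). Members and lists were chosen with earlier results of these data known. Named items were the 10 clusters with the most lesser-strand reads, the clusters and members called or with the smallest p, the 5 pairs with the nearest ends, the 3 clusters with the most circles, the 5 most abundant members and the 3 pairs with the longest mirrored stretch. Members without overlap between groups, novel_circ_0030038, novel_circ_0001592, novel_circ_0001593 and novel_circ_0039444 were named after their values were seen. Lists of host genes and cell type markers were not analysed, since no file used here pairs circles with genes. Alternatives were other normalizations, filters, overlap minimums, pseudocounts, tools and leaving out each library.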

Additional observations from a re-analysis of the deposited data

How the results depend on the processing

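The single called member was lost (0 called) with at least 30 counts, with a fit that is not robust and with DESeq2. With edgeR's expression filter 0 members were called as well, but there novel_circ_0003267 was removed by the filter and not tested. When both circles of a pair needed at least 10 reads, the count of called members was also 0. There the test of novel_circ_0003267 was unchanged, but it was no longer a member, since its only partner, novel_circ_0003271, has 7 reads. Leaving out 1 library at a time gave 0 to 2 called members: 0 without saline 2 or saline 3, and 2 without CFA 1, where novel_circ_0031282 was added. Over all circRNAs the number called was 28 in the fit reported, and 0 with at least 30 counts or the expression filter, 4 by DESeq2, 15 without saline 1 and 45 with the replicate block. With the replicate number as a block the count of members was 1, at an edgeR adjusted p of 0.0472. Deviations of same-numbered libraries from their group means correlated at 0.0227, -0.000389 and -0.0752, none above 0.1. These values give no sign of pairing but cannot exclude it, and the titles do not state whether the numbers pair animals.

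The difference in the members' read share (CFA minus saline, in percentage points) changed sign from -0.147 to 0.0116 among circRNAs with at least 10 reads only, 0.0229 without unspliced circRNAs and 0.0212 without novel_circ_0030037, the last added after seeing the data. Each of these settings leaves out novel_circ_0030037, which is unspliced and whose only partner has 4 reads. Leaving out 1 library gave -0.204 to -0.0641. The difference in the lesser-strand share, 4.06 points, kept its sign under every alternative run, at 1.65 without CFA 1, 2.34 among circRNAs with at least 10 reads only, 2.13 without unspliced circRNAs, 1.74 without the cluster of novel_circ_0030037 and 0.131 as a mean over well-read clusters. The median correlation of strand sums, 0.106, changed sign to -0.0106 with at least 30 reads on each strand (4 clusters), and to -0.239 without CFA 2 and -0.0151 without saline 3, in a range of -0.239 to 0.352 when 1 library was left out. The number of members fell to 50 when both circles needed at least 10 reads. Beyond the circle left out of the read share, the cause of these changes was not tested, and fewer circles or libraries enter. The number of clusters called for strand balance was 0 under every alternative run, and at an unadjusted p below 0.05 by edgeR it was 1 without saline 3 and 1 with the chromosome 19 cluster counted on the plus strand. Of the 30 clusters with known strands, 21 had fewer than 10 reads on the lesser strand and were not tested for balance.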
